A study of Mus musculus with 2 samples.

Results

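Genes of the WNT pathway were examined in cultured LLC cells, the Lewis lung carcinoma line from C57BL/6 mice. PDLIM2 was knocked down by shRNA in one line (shPDLIM2 LLC), and its control received virus with an empty shRNA vector (shEmpty LLC). Both lines were infected with viral supernatant and selected with puromycin as stable lines. A single shRNA was used for the knockdown line, and RNA of each line was hybridized to 1 Affymetrix Clariom S mouse array. The members were chosen by symbol in the platform annotation: WNT ligands, Frizzled receptors, Dickkopf, secreted Frizzled-related, AMER, Dishevelled and R-spondin genes by family name, and 17 further pathway genes by name. In all 60 of 19505 genes were members, 46 by family name and 14 by single name, and each had 1 probe set. Ctnnb1, Tcf7, Rnf43 and Dvl2 were not analysed here, so that beta-catenin itself has no value.

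WNT proteins are secreted, lipid-modified ligands that bind Frizzled receptors together with the co-receptors LRP5 and LRP6. Without ligand, a destruction complex built on Axin and APC holds the kinases GSK3 and casein kinase 1, which mark beta-catenin for degradation. With ligand, Dishevelled and Axin are drawn to the receptors, beta-catenin accumulates, enters the nucleus and binds TCF and LEF proteins on DNA to switch on target genes, several of which encode inhibitors of the pathway. PDLIM2, a PDZ-LIM protein with ubiquitin ligase activity toward nuclear factors, has been linked to beta-catenin in other tumors.

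All values are log2 signals as deposited, and differences are those of shPDLIM2 minus those of shEmpty cells, so that 1.00 is 2-fold. With 1 array per line no p-value and no error between cultures can be given, and it is the number of arrays that limits how precise a value can be. Fewer cells with a transcript and less of it per cell cannot be told apart on such arrays. Pdlim2 itself had a signal of 8.33 in shPDLIM2 and 10.04 in shEmpty cells. A signal was called above background where it lay above the level that 95% of 1465 odorant, vomeronasal, taste and trace amine receptor genes stayed under on the same array, 5.26 in shPDLIM2 and 5.12 in shEmpty cells. For these receptor genes the central 95% of differences spanned -0.79 to 1.01, and for all genes -0.94 to 0.92. In 48 genes with 2 probe sets, the spread of a single probe set's difference was 0.35, which covers probes and not cultures. Of the epithelial markers, Krt8 and Krt18 were above background on both arrays and Epcam and Cdh1 on neither. Krt18 had signals of 11.29 in shPDLIM2 and 12.20 in shEmpty cells, and Krt19 had 4.67 in shPDLIM2 and 5.82 in shEmpty cells. Of the measured markers of macrophages, lymphocytes and endothelium, 2 of 8 were above background on an array: Adgre1 at 5.76 in shPDLIM2 and 4.93 in shEmpty cells, and Pecam1 at 5.33 in shPDLIM2 and 3.55 in shEmpty cells. Ptprc, the pan-leukocyte marker, was at 4.63 in shPDLIM2 and 4.64 in shEmpty cells, not above background. Of the measured fibroblast markers, Col3a1 was at 10.49 in shPDLIM2 and 10.83 in shEmpty cells. Dcn was above background in shPDLIM2 cells alone, at 5.82 against 5.06, and Col1a1, Col1a2 and Lum on neither array. Of the lung epithelial markers, Sftpc was just above background on both arrays, at 5.33 in shPDLIM2 and 5.13 in shEmpty cells, and Sftpb, Scgb1a1 and Nkx2-1 on neither. The part of these markers in the values below was not tested.

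Within the pathway the differences went in both directions, and each role group of more than 1 gene held both higher and lower members. Of 60 members, 31 were higher and 28 lower in shPDLIM2 LLC cells and Wnt8b was equal, with a median difference of 0.03 beside 0.01 over all genes. Of all genes, 9761 were higher and 9555 lower. After quantile normalization the split of the members turned to 27 higher and 33 lower, beside 9656 higher and 9696 lower of all genes. Amer1, a scaffold protein of the beta-catenin destruction complex, was 3.16-fold higher. Dkk2, a secreted ligand of LRP5 and LRP6, was 1.99-fold lower and Wnt7b 1.75-fold lower.
At least 2-fold higher were 2 of 60 members, Amer1 and Wnt4, or 3.33%, beside 1.74% of all genes, and at least 2-fold lower were 0 of 60, beside 2.01% of all genes. After quantile normalization of the arrays or removal of a trend with signal, Wnt10a was also past 2-fold, and after centring Dkk2 was, so that the split was 2 higher and 1 lower. At least 1.5-fold higher were 7 of 60 members (11.7%), beside 9.78% of all genes, and at least 1.5-fold lower were 9 of 60 (15.0%), beside 10.0% of all genes. Of the 7 higher members, 5 were above background on neither array, Wnt4 among them, and of the 9 lower members 0 were.

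**Figure D1:**
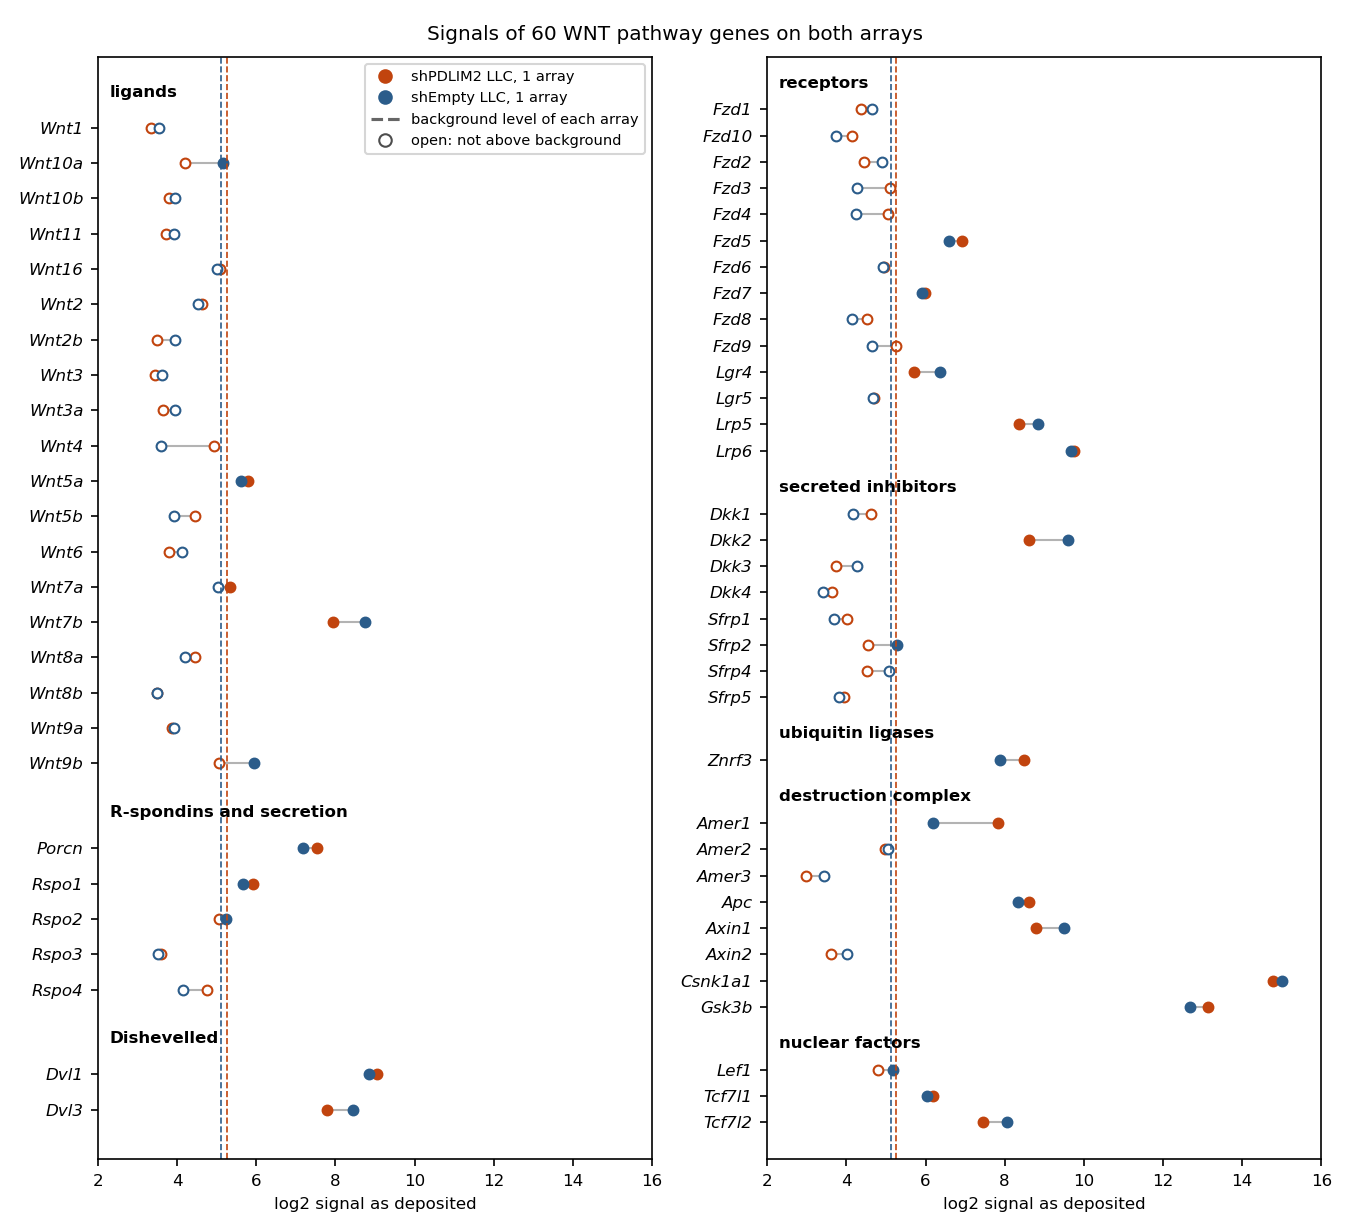
Log2 signal (x axis) of each of the 60 members on the shPDLIM2 array (orange) and the shEmpty array (blue), by role; filled points are above the background level of their array, shown as dashed lines at 5.26 for shPDLIM2 and 5.12 for shEmpty, and there are no error bars because each line had 1 array. The widest gap among genes with 2 filled points is that of Amer1, at 7.84 in shPDLIM2 and 6.18 in shEmpty cells.

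A signal above background on both arrays was seen for 20 members, on the shPDLIM2 array alone for 1, on the shEmpty array alone for 5 and on neither for 34. Of all 19505 genes, 9521 were above background on both arrays, 505 on the shPDLIM2 array alone, 774 on the shEmpty array alone and 8705 on neither. Among the 20, 12 were higher and 8 lower in shPDLIM2 cells, with a median of 0.12. Of the 9521 genes above background on both arrays, 4237 were higher and 5199 lower, with a median of -0.06. After quantile normalization 4804 of these genes were higher and 4651 lower. At least 2-fold higher was 1 of the 20, beside 1.11% of those genes, and at least 2-fold lower were 0, beside 2.77%. At least 1.5-fold higher were 2, Amer1 and Znrf3, beside 7.72%. At least 1.5-fold lower were 6 of 20, or 30.0%, beside 13.5%: Dkk2, Wnt7b, Axin1, Lgr4, Dvl3 and Tcf7l2. These 6 include both activators and inhibitors of the pathway. After quantile normalization or removal of the trend, Dvl3 and Tcf7l2 were within 1.5-fold, which left 4 of 20 beside 10.4% and 10.5% of the genes. The differences of 9 of the 20 were smaller than the probe set spread of 0.35. Over all genes the quartiles of the differences, -0.29 and 0.30, also lay within it, and many genes outside the pathway exceeded it.

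Most WNT ligand genes gave no signal above background on either array. This held for 14 of 19 ligands, beside 8705 of all 19505 genes. Among the 14 were Wnt1 and Wnt3a, classic activators of beta-catenin, at 3.34 and 3.64 in shPDLIM2 and at 3.54 and 3.94 in shEmpty cells. Wnt7b, a ligand of the lung epithelium in development, had a signal of 7.94 in shPDLIM2 and 8.75 in shEmpty cells, a difference of -0.81. Wnt5a, which signals mainly through receptors other than the beta-catenin branch, had 5.78 in shPDLIM2 and 5.60 in shEmpty cells, a difference of 0.18. These were the ligands above background on both arrays, and Wnt7b was lower by more than the probe set spread while Wnt5a was within it.
Wnt9b, a ligand of kidney development, was at 5.06 in shPDLIM2 and 5.95 in shEmpty cells. Only the shEmpty signal was above background, and the knockdown was at least 1.62-fold lower. Wnt10a was at 4.19 in shPDLIM2 and 5.16 in shEmpty cells, where it lay just above the background level, and no fold was computed for it. Wnt7a was above background in shPDLIM2 cells alone, at 5.34 against 5.02 in shEmpty cells, or at least 1.17-fold higher.
Wnt4, a ligand with roles in the kidney and the female reproductive tract, had 4.94 in shPDLIM2 and 3.59 in shEmpty cells. Its difference of 1.35 ranked 67 of 19505 from the highest, but both signals were below the background level and no fold is given. Of the 19 ligands 7 were higher and 11 lower, with a median of -0.15. After quantile normalization 5 were higher and 14 lower. Of Porcn and the 4 R-spondin genes, 4 were higher and 1 lower, and 2 of the 5 were above background on both arrays. Porcn, the acyltransferase that attaches the lipid to WNT proteins, had 7.54 in shPDLIM2 and 7.17 in shEmpty cells, a difference of 0.37. Rspo1, an R-spondin that stabilizes Frizzled receptors at the surface, had 5.92 in shPDLIM2 and 5.66 in shEmpty cells, a difference of 0.26. Rspo2 was above background in shEmpty cells alone, with 5.06 in shPDLIM2 and 5.24 in shEmpty cells. Rspo3 and Rspo4 were above background on neither array, with differences of 0.07 and 0.62.

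Of 10 Frizzled genes, which encode the receptors that bind WNT proteins, 8 were higher and 2 lower in shPDLIM2 cells, with a median difference of 0.35. Only Fzd5 and Fzd7 were above background on both arrays. Fzd5 had 6.93 in shPDLIM2 and 6.59 in shEmpty cells, a difference of 0.34, and Fzd7 had 5.98 in shPDLIM2 and 5.92 in shEmpty cells, a difference of 0.06. Neither difference exceeded the probe set spread. The larger Frizzled differences belonged to genes at background, Fzd3 at 0.84, Fzd4 at 0.81 and Fzd9 at 0.60, and Fzd9 lay just below the background level of the shPDLIM2 array with a signal of 5.25. No fold is given for these, since neither array was above background. The 8705 genes above background on neither array were also higher more often than lower, with 4982 higher, 3623 lower and a median of 0.08. After quantile normalization 7 Frizzled genes were higher and 3 lower, with a median of 0.31.
The LRP co-receptors differed from each other. Lrp6 had 9.76 in shPDLIM2 and 9.68 in shEmpty cells, a difference of 0.08, while Lrp5 had 8.37 in shPDLIM2 and 8.83 in shEmpty cells, a difference of -0.46 or 1.38-fold lower. Lgr4, a receptor for R-spondins, had 5.72 in shPDLIM2 and 6.37 in shEmpty cells, a difference of -0.65 or 1.57-fold lower. Lgr5, the R-spondin receptor that marks intestinal stem cells, was at background with 4.70 in shPDLIM2 and 4.68 in shEmpty cells. Dishevelled proteins carry the signal from Frizzled to Axin. Dvl1 had 9.04 in shPDLIM2 and 8.84 in shEmpty cells, a difference of 0.20, whereas Dvl3 had 7.79 in shPDLIM2 and 8.44 in shEmpty cells, a difference of -0.65 or 1.57-fold lower. The gap between both Dishevelled differences was 0.85.

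**Figure D2:**
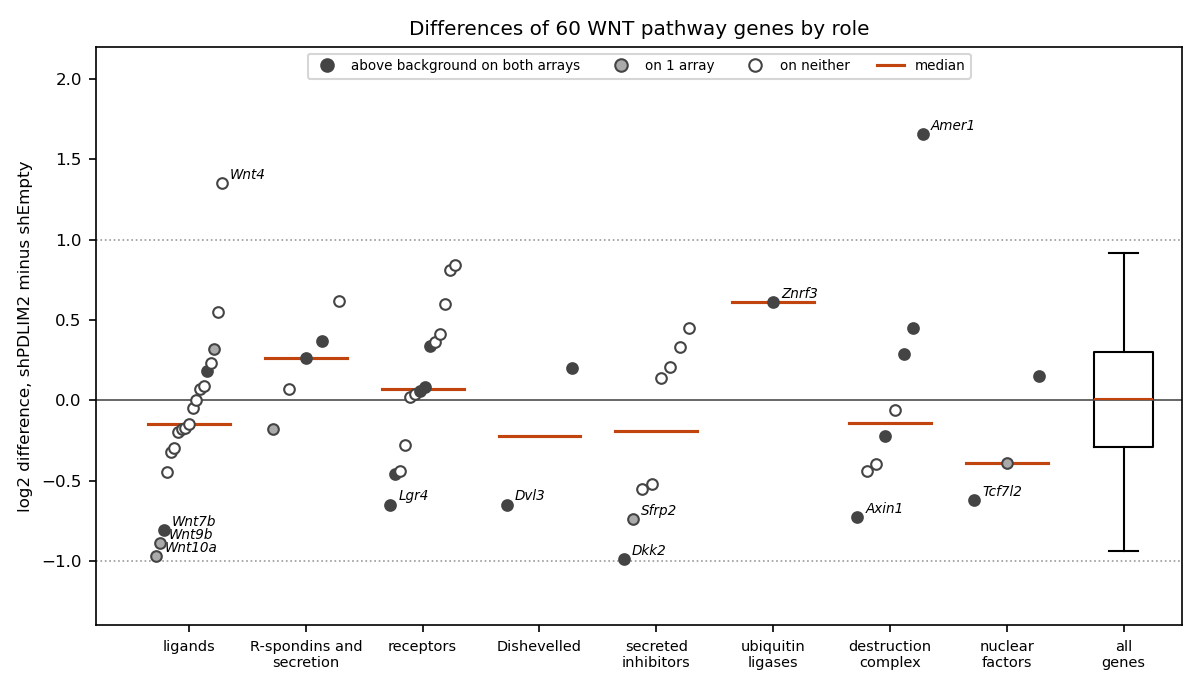
Log2 difference, shPDLIM2 minus shEmpty (y axis), of each of the 60 members by role, 1 point per gene, with red lines at the medians; the box over all 19505 genes spans the quartiles from -0.29 to 0.30 and its whiskers run from -0.94 to 0.92. Amer1 at 1.66 and Wnt4 at 1.35, an open point, stand above the 2-fold line.

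Among secreted inhibitors, Dkk2 was the one gene above background on both arrays. It had 8.61 in shPDLIM2 and 9.60 in shEmpty cells, a difference of -0.99, and ranked 393 of 19505 from the lowest. The Dkk2 protein binds LRP5 and LRP6 and can block or, in some settings, stimulate the pathway. Dkk1, the best known inhibitor of LRP6, was at background with 4.61 in shPDLIM2 and 4.16 in shEmpty cells. Dkk3, a divergent Dickkopf that is not a classic WNT inhibitor, and Dkk4 were also at background, with differences of -0.52 and 0.21. Sfrp2, which encodes a secreted protein that binds WNT, had 4.54 in shPDLIM2 and 5.28 in shEmpty cells. Only the shEmpty signal was above background, which gave a bound of at least 1.02-fold lower. Sfrp1, Sfrp4 and Sfrp5 were above background on neither array. Of the 8 secreted inhibitors 4 were higher and 4 lower.
Znrf3, a membrane ubiquitin ligase that removes Frizzled receptors and is itself a target of beta-catenin, had 8.49 in shPDLIM2 and 7.88 in shEmpty cells, a difference of 0.61 or 1.53-fold higher. Of the R-spondins and Lgr4, which act against it, Lgr4 was lower, at -0.65. The differences of Rspo1, at 0.26, and Rspo2, at -0.18, were within the probe set spread of 0.35, so no direction is read from them. Rspo3 and Rspo4 were above background on neither array.

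In the destruction complex, genes above background went both ways. Amer1, which is also known as Wtx and is mutated in Wilms tumors, had 7.84 in shPDLIM2 and 6.18 in shEmpty cells. Its difference of 1.66 ranked 17 of 19505 from the highest and lay outside the central 95% of genes above background on both arrays, which ran from -1.02 to 0.84. It was the only one of the 20 members above background on both arrays to do so. The Amer1 protein binds APC at the plasma membrane and takes part both in the turnover of beta-catenin and in the phosphorylation of LRP6. Its relatives Amer2 and Amer3 were above background on neither array, with 4.98 and 2.99 in shPDLIM2 and 5.04 and 3.43 in shEmpty cells.
Axin1, the scaffold of the complex, had 8.78 in shPDLIM2 and 9.51 in shEmpty cells, a difference of -0.73 or 1.66-fold lower. Axin2, a second scaffold whose transcription is a common readout of active beta-catenin, was not above background, with 3.62 in shPDLIM2 and 4.02 in shEmpty cells. Apc, the tumor suppressor of the colon, had 8.62 in shPDLIM2 and 8.33 in shEmpty cells, a difference of 0.29. Of the scaffolds above background, Amer1 was thus higher and Axin1 lower, while Apc was within the probe set spread of 0.35.
Both kinases of the complex were within 1.5-fold. Gsk3b had 13.14 in shPDLIM2 and 12.69 in shEmpty cells, a difference of 0.45 or 1.37-fold higher. Csnk1a1, the casein kinase that primes beta-catenin, had 14.79 in shPDLIM2 and 15.01 in shEmpty cells, a difference of -0.22, smaller than the probe set spread. For the nuclear partners of beta-catenin, Tcf7l2 had 7.45 in shPDLIM2 and 8.07 in shEmpty cells, a difference of -0.62 or 1.54-fold lower. Tcf7l1, which acts mostly as a repressor, had 6.19 in shPDLIM2 and 6.04 in shEmpty cells, a difference of 0.15. Lef1 was above background in shEmpty cells alone, with 4.79 in shPDLIM2 and 5.18 in shEmpty cells, and no fold was computed for it.

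**Figure D3:**
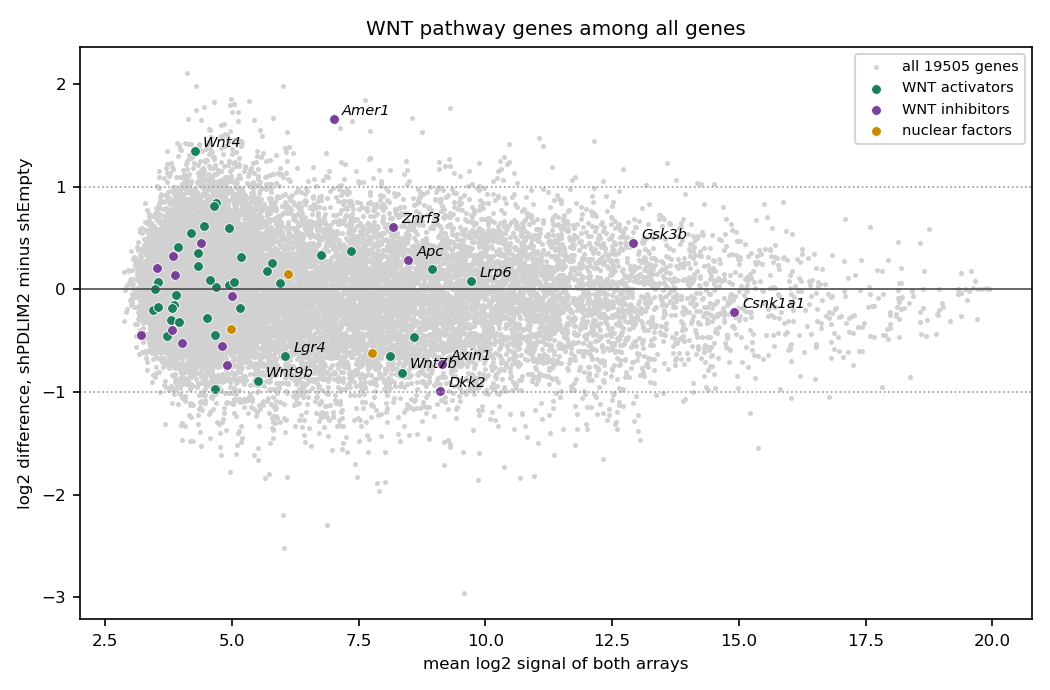
Log2 difference, shPDLIM2 minus shEmpty (y axis), against the mean log2 signal of both arrays (x axis) for all 19505 genes (grey) and for the 60 members, colored as activators, inhibitors or nuclear factors; dotted lines mark 2-fold. Activators and inhibitors lie on both sides of 0, and Amer1 at 1.66 is the member farthest from it.

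Activators and inhibitors of the pathway did not separate. Among 40 genes for activators (ligands, R-spondins, Porcn, receptors and Dishevelled), 22 were higher and 17 lower in shPDLIM2 cells, with a median difference of 0.05. Among 17 genes for inhibitors (Dickkopf and secreted Frizzled-related genes, Znrf3 and the destruction complex), 8 were higher and 9 lower, with a median of -0.06. The activator median was thus 0.11 above the inhibitor median. Over the genes above background on both arrays the order was the other way round. The 11 activators had a median of 0.08 and the 7 inhibitors a median of 0.29, so that the activator median minus the inhibitor median was -0.21. The sign of this contrast thus turned with the genes that were included. Under quantile normalization 18 of the 40 activators were higher and 22 lower, while the inhibitors stayed at 8 higher and 9 lower.

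TCF and LEF proteins bind DNA through a core that reads CTTTG followed by a pair of bases that are each A or T. This word was looked for, on either strand, in RefSeq promoter windows of build GRCm38.p6, which run from 250 bases before to 50 bases after a gene's start. Of the 60 members 37 had a window, and 8 of their 44 windows (18.2%) held a word, beside 16.9% of all 32851 windows. Of the 8 members that hold one, Fzd7, Lef1 and Tcf7l2 were above background on at least 1 array and Dkk1, Wnt3, Wnt5b, Wnt11 and Amer3 on neither. The 150 bases before the start are shown for the members above background with a word, for Dkk1, a target of the pathway whose window holds 2 words, and for Dkk2, the member with the most negative difference, whose single window holds none. The words are in capitals. The bases shown are those of Tcf7l2 at chr19:55895171-55895320 (+), of Fzd7 at chr1:59481997-59482146 (+) and of Lef1 at chr3:131156144-131156293 (+). Those of Dkk1 lie at chr19:30549497-30549646 (-) and those of Dkk2 at chr3:132085142-132085291 (+). Each reads 5′ to 3′ on the strand of its gene.
Tcf7l2: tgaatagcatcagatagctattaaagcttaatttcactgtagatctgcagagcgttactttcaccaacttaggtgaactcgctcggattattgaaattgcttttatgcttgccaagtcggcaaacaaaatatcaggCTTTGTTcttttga
Fzd7: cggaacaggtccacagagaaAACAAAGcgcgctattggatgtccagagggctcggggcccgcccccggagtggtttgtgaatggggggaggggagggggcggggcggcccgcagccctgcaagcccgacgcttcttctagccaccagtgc
Lef1: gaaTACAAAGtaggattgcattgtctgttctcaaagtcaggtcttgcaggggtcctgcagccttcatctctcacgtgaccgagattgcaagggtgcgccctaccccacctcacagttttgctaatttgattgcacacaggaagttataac
Dkk1: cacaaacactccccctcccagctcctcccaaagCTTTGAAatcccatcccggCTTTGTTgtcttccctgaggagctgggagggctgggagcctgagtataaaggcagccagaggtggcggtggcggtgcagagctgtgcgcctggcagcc
Dkk2: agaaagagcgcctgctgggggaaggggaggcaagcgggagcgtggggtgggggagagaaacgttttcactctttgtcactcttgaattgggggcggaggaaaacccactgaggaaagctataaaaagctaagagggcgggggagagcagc
Counted in bases from the start to which each shown window belongs, the leftmost base of the word lies at -14 in Tcf7l2, at -130 in Fzd7 and at -147 in Lef1, and those of the Dkk1 words lie at -117 and -98. The words of Fzd7 and Lef1 are on the opposite strand and are therefore printed as their reverse complement. Beside these windows the differences were -0.62 for Tcf7l2, 0.06 for Fzd7, -0.39 for Lef1, 0.45 for Dkk1 and -0.99 for Dkk2. Lef1 has 4 windows and Tcf7l2 has 2, and only the window with the word is shown for each. In both genes the shown window lies downstream of the gene's other windows, which hold none. A word in this window is a description of the letters and not of binding.

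Genes of the pathway outside the members also went both ways. Of 58 measured genes in a list of ligand carriers, modulators, kinases, nuclear cofactors and planar polarity genes, 31 were higher and 25 lower, with a median of 0.02. At least 2-fold higher was 1 (1.72%), near the 1.74% of all genes, and at least 2-fold lower were 0, beside 2.01%. Wif1, a secreted inhibitor that binds WNT, had 5.90 in shPDLIM2 and 4.76 in shEmpty cells. It was above background in shPDLIM2 cells alone, at least 1.72-fold higher. Ror2, a receptor for Wnt5a, was likewise above background in shPDLIM2 cells alone, with 5.77 in shPDLIM2 and 4.88 in shEmpty cells, or at least 1.57-fold higher. The signals of these 2 genes rested near the background level. The other 2 genes at least 1.5-fold higher were Cxxc4, an inhibitor that binds Dishevelled, with 6.07 in shPDLIM2 and 5.31 in shEmpty cells, a difference of 0.76 above background on both arrays, and Nkd2, at 0.79 and above background on neither.
At least 1.5-fold lower were 6 of the 58 genes (10.3%), a share near the 10.0% of all genes, and at least 1.5-fold higher were 4 (6.90%), beside 9.78%. The 6 lower genes were above background on both arrays. Pygo1, a cofactor of beta-catenin in the nucleus, had 5.89 in shPDLIM2 and 6.85 in shEmpty cells, a difference of -0.96. Csnk1g2, a membrane casein kinase that phosphorylates LRP6, had 5.41 in shPDLIM2 and 6.32 in shEmpty cells, a difference of -0.91. Chd8, a chromatin remodeler that represses beta-catenin targets, was at -0.88 and Tnks, the tankyrase that marks Axin for degradation, at -0.86. Apcdd1, a membrane inhibitor of WNT signaling, and Ctnnbip1, which keeps beta-catenin from TCF, were both at -0.83. These 6 include inhibitors and activators of the pathway.

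**Figure D4:**
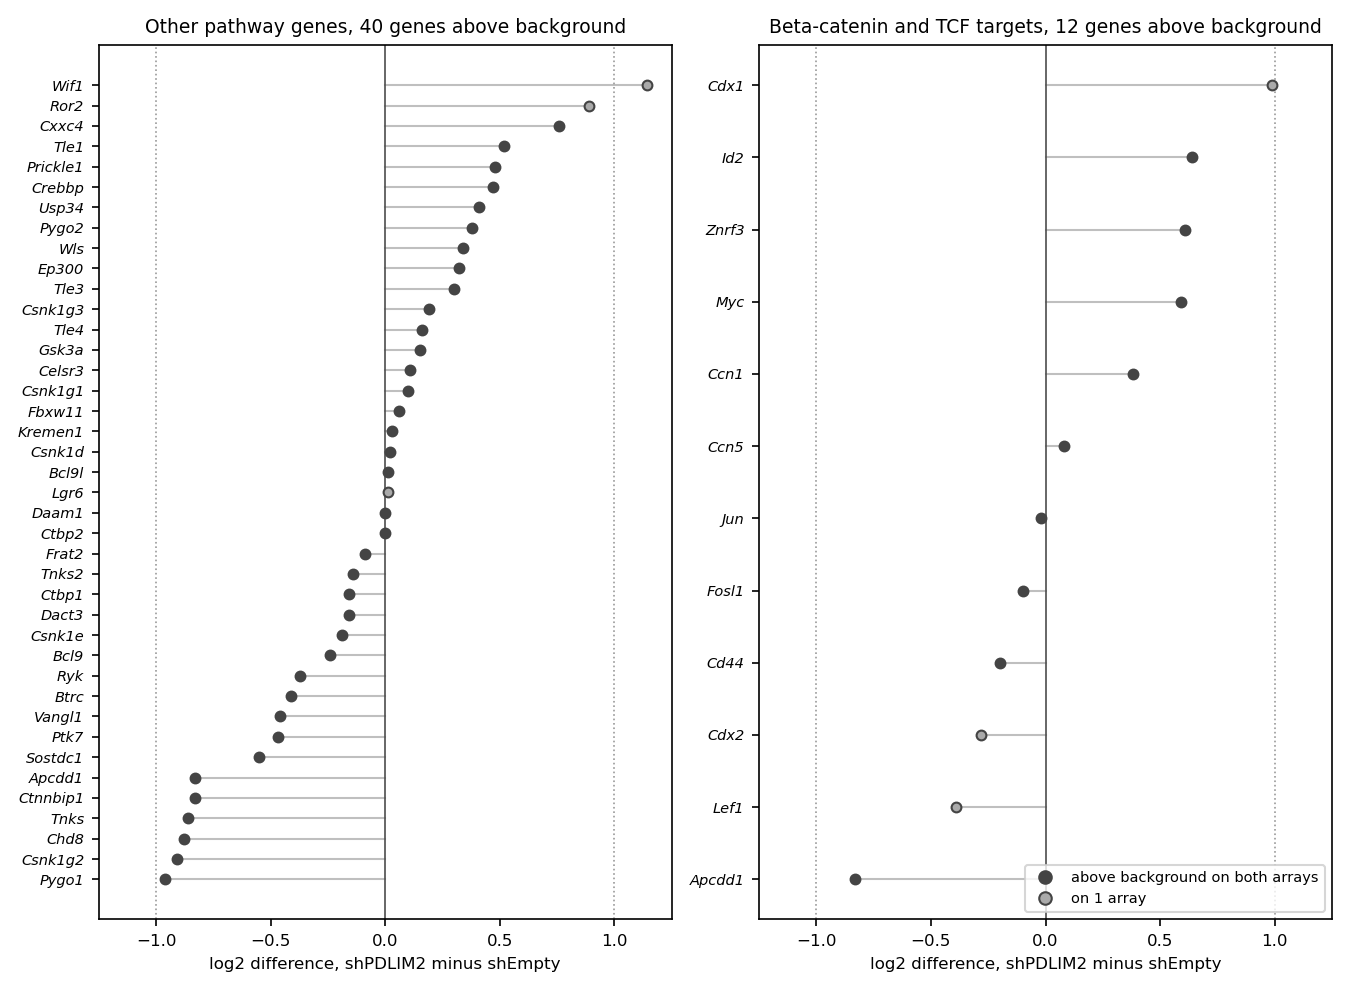
Log2 difference, shPDLIM2 minus shEmpty (x axis), of the genes above background on at least 1 array among other pathway genes (left, 40 genes) and among targets of beta-catenin and TCF (right, 12 genes), 1 point per gene; dotted lines mark 2-fold. In both panels the points lie on both sides of 0, from Pygo1 at -0.96 to Wif1 at 1.14 on the left and from Apcdd1 at -0.83 to Cdx1 at 0.99 on the right.

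Common targets of beta-catenin and TCF were compared last, since they report on the output of the pathway. Of 25 measured targets 10 were higher and 15 lower, with a median of -0.06, and 0 were at least 2-fold higher or lower, beside 1.74% and 2.01% of all genes, which is too rare for a list of 25 to show a difference. On both arrays 9 targets were above background, 5 of them higher and 4 lower, and 13 were above background on neither, among them Axin2, Lgr5, Sp5, Nkd1 and Notum. Of the 25 targets, 5 are members themselves: Axin2, Lef1, Lgr5, Znrf3 and Dkk1. At least 1.5-fold higher were 5 of 25, beside 9.78% of all genes, and 1 was at least 1.5-fold lower, beside 10.0%. Of the 5, Myc and Mmp7 lay at 0.59, just past the 1.5-fold limit of 0.585. The targets were not counted again under the other scalings, so this count is not firm. Myc, the growth-promoting transcription factor, had 19.04 in shPDLIM2 and 18.45 in shEmpty cells, a difference of 0.59 close to the highest signal of either array (19.93), and Id2, an inhibitor of differentiation, had 11.18 in shPDLIM2 and 10.54 in shEmpty cells, a difference of 0.64. Cdx1, an intestinal homeobox factor, was above background in shPDLIM2 cells alone, with 5.39 in shPDLIM2 and 4.40 in shEmpty cells, or at least 1.21-fold higher. Mmp7 was at 0.59 with both signals at background, and Znrf3 was at 0.61. The target at least 1.5-fold lower was Apcdd1, with 10.72 in shPDLIM2 and 11.55 in shEmpty cells. Myc and Id2 also answer to many other pathways, and the share of beta-catenin in their signals was not tested.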

How the data were processed

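Gene expression was measured on 1 Affymetrix Clariom S mouse array per cell line. The values that the authors deposited are RMA log2 signals, 1 per probe set, made in the Transcriptome Analysis Console according to the submitters' processing notes, which give no versions. The sources used here do not give the genome build or whether both arrays were normalized together. The median log2 signal was 5.29 in shPDLIM2 and 5.22 in shEmpty cells. The direction follows the sample labels, and no centring is stated.

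Gene symbols came from the annotation of the array platform, in which 19572 of 22206 had 1 symbol and 2634 had none. Probe sets of a gene were averaged. A fold is given where both signals were above background, and a lower bound where 1 was, taken against the dimmer array's background level or signal, whichever was higher. Lists are described by counts and medians beside all genes, and no test was possible. Members, lists and classes were chosen with earlier results of these data known. Genes named were every member above background that differed at least 1.5-fold, and the brightest and most different members of each role group. All Amer, Dvl, Lrp, Axin, Tcf and Lef genes were also named. From each other list, up to 6 genes above background with the largest absolute differences were named, so they are not typical of their list. Ctnnbip1, Cxxc4, Nkd2, Mmp7, Sp5, Nkd1 and Notum were named after their values were seen. Alternatives were centring, quantile normalization, removal of a lowess trend (fraction 0.3), filters on background, a fold of 1.5 and other class limits. Centring and removal of the trend were tested on simulated differences, and quantile normalization on a small made-up set of values. The background calls, fold bounds, class contrasts and promoter search were not tested in this way. Promoter sequences are from RefSeq (GRCm38.p6), and motif matches used exact words on both strands. Calculations were run in Python 3.11.15 with pandas 2.3.3, numpy 2.4.6 and statsmodels 0.14.6, and plots were drawn in matplotlib 3.10.9.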

Additional observations from a re-analysis of the deposited data

How the results depend on the processing

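Under the 3 scalings of the arrays, all 180 values of single members moved by less than the probe set spread, by at most 0.12, and 5 genes with deposited differences of at most 0.09 in size, Fzd6, Lgr5, Wnt16, Wnt2 and Wnt8b, lay on another side of 0. The count of members at least 2-fold lower was 1 under each scaling. Quantile normalization gave a median of -0.0525 for the members and -0.0325 for the activators, and removal of the trend gave -0.0401 for the members and -0.0215 for the activators. Over members above background on at least 1 array, 13 were higher and 13 lower, 1 was at least 2-fold higher, the median was -0.06 and that of the inhibitors 0.035. Over members above background on both arrays, 12 were higher, 8 lower and 1 at least 2-fold higher, the inhibitor median was 0.29 and the activator median minus the inhibitor median was -0.21. A fold of 1.5 gave 7 higher and 9 lower members. Without members that act in both directions the inhibitor median was 0.25 and the contrast -0.20. Those left out were Dkk2, Dkk3, Gsk3b, Csnk1a1 and the Amer and secreted Frizzled-related genes, and no activator was left out. The inhibitors that remained were Dkk1, Dkk4, Axin1, Axin2, Apc and Znrf3. Of these, Dkk1, Dkk4 and Axin2 were above background on neither array. Settings chosen after seeing the data left the contrast positive, at 0.19 without Amer1 and at 0.05 with class means. At the 99th and 90th percentiles of the receptor genes, 20 and 34 members were above background, beside 26. The causes were not tested. No paired analysis was possible because each line had 1 array. Most members lay near the background level, where a signal gives no reliable fold.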

Other observations

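Frzb, the gene of the third secreted Frizzled-related protein, does not carry a symbol of that family and is therefore not among the members. Its log2 signals were 4.07 in shPDLIM2 and 4.15 in shEmpty cells, above background on neither array.

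Further genes from the list of other pathway genes were looked at after the values were seen. Some belong to the WNT branch that steers cell polarity, which does not run through beta-catenin. They are a selection, and not every polarity gene of the list is given. Vangl1, a membrane organizer of planar polarity, had 7.13 in shPDLIM2 and 7.59 in shEmpty cells, and Ptk7, a WNT co-receptor, had 6.07 in shPDLIM2 and 6.54 in shEmpty cells. Prickle1, a further planar polarity gene, had 6.33 in shPDLIM2 and 5.85 in shEmpty cells. Ryk, a further WNT receptor, had 13.36 in shPDLIM2 and 13.73 in shEmpty cells, and Daam1, a formin downstream of Dishevelled, had 9.09 on both arrays. Wls, which escorts WNT proteins to the cell surface, had 11.86 in shPDLIM2 and 11.52 in shEmpty cells. The corepressors Tle1 and Tle3, which sit on TCF proteins when beta-catenin is absent, had differences of 0.52 and 0.30, and Tle4 was at 0.16.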
